A study of Arabidopsis thaliana with 12 samples.

Results

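The comparison described here sets seedlings of the *brat1nrpe1* double mutant against wild-type (WT) seedlings, to ask what is left of the transcriptional changes when both factors are lost. It used 6 of the 12 RNA sequencing libraries of the series, 3 of *brat1nrpe1* and 3 of WT, paired by replicate number, and all 34133 gene rows of the deposited FPKM table (fragments per kilobase of transcript and mapped reads, a level corrected for gene length and depth). The double mutant carries T-DNA insertion alleles, *brat1-1* and *nrpe1-11* by the study's methods, so each mutation is represented by 1 allele. The single mutants *nrpe1* and *brat1*, with 3 libraries each, were used to place the loci, and WT was Col-0. All plants were of the Columbia ecotype, grown on agar plates for 10 days with 16 h of light and 8 h of darkness, and each library came from pooled whole seedlings, so a gene's level is an average over organs.

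*NRPE1* encodes the largest subunit of RNA polymerase V, whose transcripts guide RNA-directed DNA methylation (RdDM) to transposons and other repeats. In plants without Pol V, a set of methylated loci is released from silencing. BRAT1 is a bromodomain protein with an AAA-type ATPase domain that acts against silencing, and bromodomains bind acetylated lysines of histones. Some genes depend on the RdDM machinery in the opposite way, among them *ROS1*, which encodes a 5-methylcytosine DNA glycosylase of active demethylation and is expressed less when its own promoter loses methylation.

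Sequences upstream of 6 loci are shown because these loci carry the outcomes described below, release that persists (*SDC* and *AT5G24240*), release that is mostly gone (*AT3G33528*), loss of transcript (*QQS* and *ROS1*) and a gain called in the double mutant and in neither single mutant (*AT3G30730*). Each runs 5′ to 3′ on the gene's own strand from 250 bases before to 50 bases after the annotated start in TAIR10.1, with CG dinucleotides, the context of maintained CG methylation, in capitals. The windows are chr2:7681912-7682211 (plus strand) for *SDC*, chr5:8234101-8234400 (minus) for *AT5G24240*, chr3:14084297-14084596 (minus) for *AT3G33528*, chr3:12348797-12349096 (plus) for *QQS*, chr2:15314758-15315057 (minus) for *ROS1* and chr3:12358079-12358378 (minus) for *AT3G30730*.
SDC: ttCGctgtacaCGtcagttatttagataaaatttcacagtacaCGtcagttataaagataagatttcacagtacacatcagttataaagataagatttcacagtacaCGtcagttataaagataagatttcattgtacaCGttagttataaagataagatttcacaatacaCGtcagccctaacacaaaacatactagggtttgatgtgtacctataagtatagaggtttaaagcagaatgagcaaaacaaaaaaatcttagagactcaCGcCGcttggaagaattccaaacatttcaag
AT5G24240: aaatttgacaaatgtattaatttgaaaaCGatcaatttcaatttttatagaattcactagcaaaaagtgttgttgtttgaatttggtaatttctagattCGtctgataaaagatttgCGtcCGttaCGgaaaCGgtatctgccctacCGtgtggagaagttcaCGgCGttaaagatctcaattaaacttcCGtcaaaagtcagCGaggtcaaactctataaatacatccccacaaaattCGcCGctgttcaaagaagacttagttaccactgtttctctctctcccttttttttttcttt
AT3G33528: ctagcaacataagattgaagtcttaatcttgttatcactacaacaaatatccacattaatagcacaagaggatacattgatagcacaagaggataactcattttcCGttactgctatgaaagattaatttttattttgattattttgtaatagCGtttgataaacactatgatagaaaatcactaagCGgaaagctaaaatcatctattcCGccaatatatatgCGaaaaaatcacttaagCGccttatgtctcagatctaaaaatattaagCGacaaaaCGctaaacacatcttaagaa
QQS: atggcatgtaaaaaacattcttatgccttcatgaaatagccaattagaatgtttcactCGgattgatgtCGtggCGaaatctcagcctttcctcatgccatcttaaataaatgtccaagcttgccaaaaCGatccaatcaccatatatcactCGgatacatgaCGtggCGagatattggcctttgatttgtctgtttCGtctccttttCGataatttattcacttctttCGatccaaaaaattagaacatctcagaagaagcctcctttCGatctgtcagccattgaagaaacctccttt
ROS1: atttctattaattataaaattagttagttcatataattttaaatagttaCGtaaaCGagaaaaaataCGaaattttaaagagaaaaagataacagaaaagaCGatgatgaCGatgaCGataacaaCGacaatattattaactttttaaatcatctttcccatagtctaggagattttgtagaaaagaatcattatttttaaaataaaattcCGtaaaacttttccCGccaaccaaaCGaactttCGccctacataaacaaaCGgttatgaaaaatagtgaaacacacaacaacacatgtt
AT3G30730: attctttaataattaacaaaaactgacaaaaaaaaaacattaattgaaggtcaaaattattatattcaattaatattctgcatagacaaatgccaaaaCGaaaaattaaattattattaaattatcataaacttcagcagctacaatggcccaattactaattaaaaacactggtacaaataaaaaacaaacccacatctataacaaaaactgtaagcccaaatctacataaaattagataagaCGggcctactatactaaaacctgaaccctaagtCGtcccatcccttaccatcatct
The motif searched was CG, which reads the same on both strands. These windows held 8, 13, 8, 11, 12 and 3 CG in the order shown, and windows of the same length at 32802 annotated starts held a median of 6, with at least 1 in 98.2% of them. Genes called higher in *brat1nrpe1* had a median of 5 CG (173 windows), those called lower a median of 6 (106 windows) and all genes tested a median of 6. In *SDC*, which encodes an F-box protein, the window lies over a direct tandem repeat. A stretch of 134 bases at chr2:7681942-7682075 (TAIR10.1, plus strand) repeats a unit of 32 bases 4.19 times, and the unit, written in lower case, is the sequence that recurs, with few changes, in the *SDC* line above.
SDC repeat unit: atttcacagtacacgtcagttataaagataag

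Replicate 1 stood apart from replicates 2 and 3 in every genotype. Among 11453 genes with a mean of at least 10 FPKM, replicates 2 and 3 of *brat1nrpe1* differed by a median of 0.057 on the log2 scale, against 0.356 between replicates 1 and 2, and in WT these medians were 0.056 and 0.373. Libraries with the same number differed between *brat1nrpe1* and WT by medians of 0.099 to 0.1. The steps of the lowest FPKM values gave replicate 1 of *brat1nrpe1* and WT 2.07 and 2.09 times the depth of WT replicate 3, and the other 3 libraries 0.732 to 0.923 times that depth. The number of mapped reads itself was not used, so no interval for counting error is given. Whether replicates 2 and 3 come from separate plants is not stated in the sources used here, and the p-values measure the spread between these libraries only.

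Leaf markers were abundant, with 5 genes summing to 32425 to 33233 FPKM in *brat1nrpe1* and 33623 to 35342 in WT, and none of the 5 was called. None of 5 root markers was called, and 2 had a positive difference, in a log2 range of -0.18 to 0.63. Their sum was 839 to 1417 FPKM in *brat1nrpe1*, against 558 to 894 FPKM in WT. All 5 flower markers had a positive difference, their sum was 7.29 to 10.9 FPKM against 2.95 to 4.45 FPKM in WT, and *SEP3* and *AP3* were called higher. Seed storage genes had 1 of 5 members (*SESA1*) at 0 in all 6 libraries and sums of 0.245 to 4.73 FPKM in *brat1nrpe1* and 0.037 to 1.68 FPKM in WT.

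Both mutated genes were low in the double mutant. *BRAT1* (AT1G05910, chromosome 1, 1790216 to 1796715) had 3.11, 2.67 and 2.79 FPKM in *brat1nrpe1*, against 11, 11.4 and 11.1 FPKM in WT. *NRPE1* (AT2G40030, chromosome 2, 16714460 to 16723718) had 1.1, 1.1 and 1.02 FPKM in *brat1nrpe1*, against 5.01, 4.14 and 4.16 FPKM in WT. Each *brat1nrpe1* library lay far below every WT library, with log2 differences, here and in the rest of the text ± SE of the fit, of -1.93 ± 0.07 and -1.95 ± 0.11 and adjusted p of 2.61e-06 and 1.91e-05 by limma, so transcript of both genes was reduced but still present. *BRP1* (AT3G15120), which encodes the partner protein of BRAT1 in its complex, had 8.54, 6.35 and 6.72 FPKM in *brat1nrpe1* and 7.79, 6.92 and 6.66 FPKM in WT, a difference of 0.01 ± 0.08.

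Of 22645 genes with a mean of at least 0.1 FPKM over the 12 libraries, 173 (0.764%) were higher and 107 (0.473%) lower in *brat1nrpe1* than in WT. A gene was called at P under 0.01 with a log2 difference above 1 in size, both on log2(FPKM + 0.1) in limma with replicate number as a block, a scale that understates the change of low genes. With a Benjamini-Hochberg adjusted p under 0.05 in place of P, 129 (0.57%) were higher and 83 (0.367%) lower. Most genes that rose had low levels in WT. Their median was 1.43 FPKM in *brat1nrpe1* and 0.374 FPKM in WT, and 16 of the 173 were listed at 0 in all 3 WT libraries. Genes that fell had a median of 0.801 FPKM in *brat1nrpe1* and 2.41 FPKM in WT, where all genes tested had a median of 10.2 FPKM. The median log2 difference over all genes tested was 0.01. All 3 pairs moved in the called direction for 173 of the 173 higher and 106 of the 107 lower genes. The calls rest on these same pairs, so the rule favours this outcome. The libraries of the 2 genotypes did not overlap for 140 of the higher and 83 of the lower genes, and over all genes tested they did not overlap for 1171 (5.17%) that were higher and 850 (3.75%) that were lower. Without the replicate block the counts were 118 and 72, of which 26 and 25 also had an adjusted p under 0.05.

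**Figure D1:**
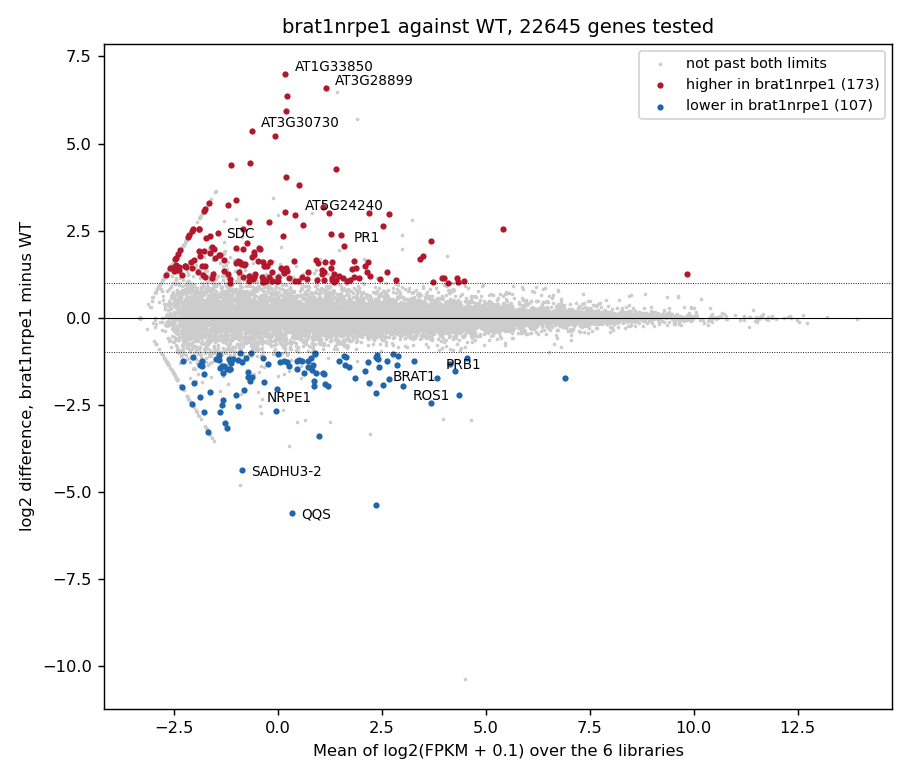
Each point is a gene, placed by its mean log2(FPKM + 0.1) over the 6 libraries and by the log2 difference of *brat1nrpe1* minus WT, with the 173 higher genes in red, the 107 lower genes in blue and dotted lines at 1 and -1. Called genes lie mostly on the left, at low levels, where grey points past the dotted lines are genes whose P missed the limit.

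The genes that rose most are loci that are almost without transcript in WT. All of these 12 but *AT3G30730* and *AT1G43205* were also called higher in *nrpe1*. *AT1G33850*, for one, had 13.2, 36 and 15.3 FPKM in *nrpe1*. Of the genes shared with *nrpe1*, *AT3G28899*, *AT5G27845*, *AT5G35207* and *AT2G01422* were called lower in *brat1nrpe1* than in *nrpe1*, and the others were not. A pair of neighbours on the minus strand of chromosome 1 held the first and the third place by log2 difference. *AT1G33850* (12287913 to 12288210), annotated as a ribosomal protein S19 family gene, had 14, 10.8 and 13.2 FPKM in *brat1nrpe1* and was listed at 0 in all 3 WT libraries. *AT1G33840* (12283725 to 12285371), of unknown function, had 11.3, 9.35 and 10.6 FPKM in *brat1nrpe1*, against 0, 0 and 0.104 FPKM in WT. No *brat1nrpe1* library of either gene came near a WT library, and the log2 differences were 6.99 ± 0.31 and 6.37 ± 0.31 on the scale with the pseudocount, with adjusted p of 5.13e-06 and 9.38e-06.

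*AT3G28899*, an unnamed gene on chromosome 3, was the most uneven of them. It had 100.4, 12.5 and 7.95 FPKM in *brat1nrpe1*, against 1.06, 0 and 0 FPKM in WT. Replicate 1 was highest in both genotypes, and the groups did not overlap (6.58 ± 0.65, adjusted p = 5.60e-04). It overlaps the annotated gene *AT3G28900*, and the sources do not say whether counting used strand. The pseudogene *AT5G27845* was the most even, with 8.72, 8.72 and 8.83 FPKM in *brat1nrpe1*, against 0.0294, 0.0626 and 0.0461 FPKM in WT (5.93 ± 0.26). *AT5G41830*, which encodes a leucine-rich repeat (RNI-like) protein, had 6.78, 4.98 and 5.31 FPKM in *brat1nrpe1*, against 0.0203, 0.116 and 0.0425 FPKM in WT (5.21 ± 0.28). The pseudogene *AT5G35207* had 2.67, 1.8 and 1.64 FPKM in *brat1nrpe1* and was listed at 0 in WT, and its neighbour *AT5G35205* was also called higher.

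Other loci in this group of 12 spanned several kinds of transcript. *AT1G47980*, annotated as desiccation-like, had 2.2, 2.67 and 3.73 FPKM in *brat1nrpe1*, against 0.0512, 0 and 0.0535 FPKM in WT. *AT3G29639* had 9.21, 11.4 and 13.9 FPKM in *brat1nrpe1*, against 0.27, 0.595 and 0.71 FPKM in WT. The non-coding RNA *AT2G01422* had 3.62, 5.58 and 4.57 FPKM in *brat1nrpe1*, against 0.147, 0.237 and 0.171 FPKM in WT. In all 3 genes every double mutant library was above every WT library, by log2 differences of 4.45, 4.27 and 4.03. *AtMT4b* (AT2G23240), a seed-type metallothionein that binds metal ions, had 2.39, 1.44 and 0.959 FPKM in *brat1nrpe1*, against 0, 0 and 0.268 FPKM in WT (3.37 ± 0.64, adjusted p = 0.0176).

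**Figure D2:**
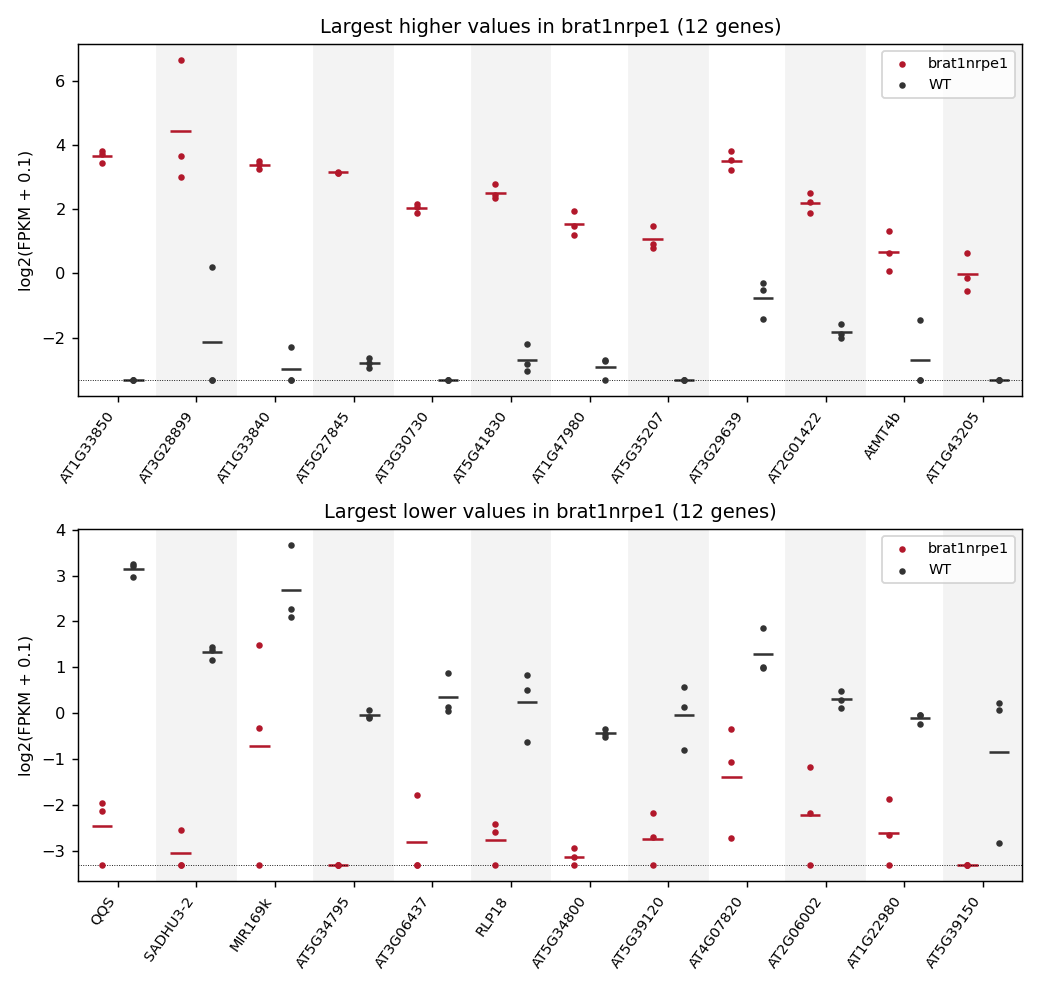
Log2(FPKM + 0.1) of the 12 genes with the largest called rise (top) and fall (bottom) whose libraries do not overlap, with 3 points a genotype, *brat1nrpe1* in red left of WT in dark grey, a bar at the mean and a dotted line at 0 FPKM. Rising genes such as *AT1G33850* sit on the dotted line in WT, and falling genes such as *QQS* sit near it in *brat1nrpe1*.

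A few called genes were abundant, and they were singled out after their values were seen. *ESM1* (AT3G14210), a GDSL-lipase-like protein that shifts glucosinolate breakdown away from nitriles, had 1505, 1366 and 1405 FPKM in *brat1nrpe1*, against 584, 617 and 584 FPKM in WT (1.26 ± 0.04, adjusted p = 1.51e-06). It shares 19.6% of its length with a copy elsewhere in the genome at 98% identity or more. The non-coding RNA *AT1G67105* had 138, 86.9 and 88.5 FPKM in *brat1nrpe1*, against 21.2, 15.4 and 16.3 FPKM in WT, and its neighbour *CYP735A2*, which hydroxylates cytokinins to trans-zeatin types, was called higher too (1.25). Both *ESM1* and *AT1G67105* were also called higher in *nrpe1*, with 1494, 1399.8 and 1386 and 144, 55.4 and 55.3 FPKM there.

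The deepest fall was that of *QQS* (qua-quine starch, AT3G30720, chromosome 3, 12349047 to 12349933), an *Arabidopsis* orphan gene that affects carbon and nitrogen allocation. It had 0.128, 0 and 0.158 FPKM in *brat1nrpe1*, against 7.78, 9.46 and 9.17 FPKM in WT, with a log2 difference of -5.62 ± 0.34 and an adjusted p of 3.91e-05. It was low in each single mutant as well, at 0.282, 0.473 and 0.322 FPKM in *nrpe1* and 0.923, 0.573 and 0.741 FPKM in *brat1*. *SADHU3-2* (AT3G42658), a Sadhu retroelement annotated as a pseudogene, had 0.0706, 0 and 0 FPKM in *brat1nrpe1*, against 2.62, 2.12 and 2.49 FPKM in WT (-4.39 ± 0.34, adjusted p = 1.71e-04). For both loci the highest double mutant library was far below the lowest WT library.

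*ROS1* (AT2G36490, chromosome 2, 15307907 to 15314807) had 4.76, 3.64 and 3.66 FPKM in *brat1nrpe1*, against 16.8, 15 and 15.3 FPKM in WT (-1.95 ± 0.07, adjusted p = 2.61e-06). The 3 double mutant libraries lay close together and well below WT. In the single mutants it had 2.56, 1.88 and 1.83 FPKM in *nrpe1* and 23.3, 19.3 and 18.7 FPKM in *brat1*. The double mutant was thus above *nrpe1* (log2 difference 0.92, adjusted p = 5.21e-04) while far below *brat1* (-2.32, adjusted p = 6.26e-07).

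Several falling loci lay side by side. *AT5G34790*, *AT5G34795*, *AT5G34800* and *AT5G34810* follow each other on the plus strand of chromosome 5 between 12966080 and 12975438, and all 4 were called lower. *AT5G34795* was listed at 0 in all 3 *brat1nrpe1* libraries and had 0.827, 0.845 and 0.947 FPKM in WT. *AT5G34800* had 0.0133, 0.0298 and 0 FPKM in *brat1nrpe1*, against 0.633, 0.601 and 0.688 FPKM in WT (-2.70 ± 0.26). Both were near the WT level in *nrpe1*, with 0.68, 0.777 and 0.446 and 0.66, 0.747 and 0.696 FPKM. In *brat1* they had 0.0615, 0.354 and 0.137 and 0.0824, 0.118 and 0.122 FPKM and were called lower than in WT (-1.91 and -1.84), as were the other members of the row.

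Germin-like genes, members of the cupin family of extracellular proteins, gave 2 further pairs on chromosome 5. Called lower were the neighbours *AT5G39110* and *AT5G39120* and the neighbours *AT5G39150* and *AT5G39160*, all on the minus strand between 15657697 and 15680141, while *AT5G39130*, which lies between the pairs, was not called (0.99 ± 0.49). *AT5G39120* had 0.0528, 0.119 and 0 FPKM in *brat1nrpe1*, against 0.471, 1.37 and 0.988 FPKM in WT (-2.70 ± 0.38, adjusted p = 0.00412), and it was also called lower in *brat1* (-1.61). *AT5G39150* was listed at 0 in all *brat1nrpe1* libraries and had 0.0409, 1.07 and 0.943 FPKM in WT, where replicate 1 was low. *AT5G39150* and *AT5G39160* are covered over 100% of their length by near-identical copies. Only uniquely mapped reads were kept, so their levels rest on the reads that tell the copies apart. The call of *AT5G39150* was lost without replicate 2 or replicate 3 of either genotype, and that of *AT5G39160* without replicate 2 of either genotype.

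Among the other large falls, *AT3G06437*, a transcribed pseudogene, had 0, 0 and 0.19 FPKM in *brat1nrpe1*, against 0.924, 0.991 and 1.73 FPKM in WT, and near-identical copies cover 76.8% of its length. *RLP18* (AT2G15040), a receptor-like protein locus annotated as a transcribed pseudogene, had 0.0873, 0.0654 and 0 FPKM in *brat1nrpe1*, against 1.67, 1.32 and 0.542 FPKM in WT. The groups did not overlap in either gene. *AT4G07820*, of the family of pathogenesis-related protein 1, had 0.0505, 0.684 and 0.374 FPKM in *brat1nrpe1*, against 1.9, 3.49 and 1.89 FPKM in WT. The non-coding RNA *AT2G06002* had 0.342, 0 and 0.12 FPKM in *brat1nrpe1*, against 1.3, 0.983 and 1.12 FPKM in WT, and *AT1G22980* had 0.0578, 0.173 and 0 FPKM in *brat1nrpe1*, against 0.744, 0.873 and 0.878 FPKM in WT. These genes fell by log2 differences between 2.51 and 3.15. *AT3G06437* was also called lower in *nrpe1* and in *brat1*. *RLP18* and *AT2G06002* were called lower in *nrpe1* and not in *brat1*, and *AT4G07820* and *AT1G22980* in *brat1* and not in *nrpe1*. The precursor of *MIR169k* had 0.702, 2.71 and 0 FPKM in *brat1nrpe1*, against 4.17, 12.5 and 4.74 FPKM in WT, with an adjusted p of 0.0641, and that of *MIR157c*, called lower but singled out after its values were seen, had 49.3, 0 and 0 FPKM in *brat1nrpe1*, against 48.8, 39.1 and 18.4 FPKM in WT. Both precursors had exact zeros beside higher values in 1 genotype, which can be failed estimates, and both calls were lost without the replicate block.

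Some called genes lay beside each other. Of the 279 called genes with a position, 47 (16.8%) lay beside another called gene among the genes tested, where 548 (2.43%) of all 22523 genes tested with a position did. They formed 25 neighbouring pairs, of which 9 were both higher, 13 both lower and 3 in opposite directions. Overlapping pairs such as *AT4G13495* and *MIR850* can share reads and are not separate measurements, and without overlapping pairs 41 called genes lay beside another. Near-identical copies, found for 24 of the called genes, lose reads under unique mapping, so the levels of these genes are less certain. Pseudogenes, which in this annotation include most transposon genes, were called higher in 21 of 456 (4.61%) and lower in 15 (3.29%), and protein-coding genes in 145 (0.672%) and 84 (0.39%) of 21566. Windows of 500 kb in which pseudogenes outnumber protein-coding genes held 389 genes tested, of which 10 (2.57%) were higher and 15 (3.86%) lower, against 163 (0.736%) and 91 (0.411%) of 22148 elsewhere. Among protein-coding genes alone, 2 of 297 (0.673%) were higher and 7 (2.36%) lower in these windows, against 143 (0.672%) and 77 (0.362%) of 21269 elsewhere. These shares are descriptions. Low expression is common to pseudogenes and to called genes, and its part in the shares was not tested.

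Genes called higher in *nrpe1* than in WT, here termed released, were then followed into the double mutant. The term means a rise in RNA only, and whether silencing was lost at each gene was not tested. In *nrpe1*, 147 genes (0.649%) were called higher than in WT. In *brat1nrpe1*, 74 of them were still called higher than WT, 11 had a 95% interval of the log2 difference that lay within 1 of WT in both directions, and 62 met neither rule. Over all genes tested the interval lay within 1 for 19528 genes (86.2%). Both comparisons use the same WT libraries, so they are not independent of each other, and the 147 genes were chosen on their *nrpe1* values. Without the replicate block, 54 were still released and 7 back. The 74 include *PR1*, *BGL2*, *AIG1* and *BIP3*, members of the defence and stress lists described below. Of these, *PR1*, *BGL2* and *AIG1* were also called higher in *brat1*.

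The 74 loci still released were chosen by their level in *brat1nrpe1*, so the share of expression they kept is a description. Their median log2 difference from WT was 2.04 in *brat1nrpe1* and 2.53 in *nrpe1*, and the median locus had 72.2% of its *nrpe1* level in the double mutant (quartiles 43.6% and 100.2%). The double mutant was below *nrpe1* for 54 of the 74, with 14 called lower and 1 called higher, where 118 (0.521%) and 66 (0.291%) of all genes tested were. The 74 were chosen on high values in *nrpe1* and in *brat1nrpe1*, so these counts are descriptions too. *SDC* (AT2G17690, chromosome 2, 7682162 to 7684083), the F-box gene with the tandem repeat shown above, had 1.89, 2.33 and 2.23 FPKM in *brat1nrpe1*, 12.6, 12.9 and 12.4 FPKM in *nrpe1* and 0.181, 0.173 and 0.379 FPKM in WT. It was therefore higher than WT (2.75 ± 0.31, adjusted p = 0.00132) and lower than *nrpe1* (-2.50, adjusted p = 0.00423). *AT5G24240*, a phosphatidylinositol 4-kinase gamma-like gene, had 4.87, 2.99 and 3.19 FPKM in *brat1nrpe1*, 12, 9.54 and 9.26 FPKM in *nrpe1* and 0.488, 0.284 and 0.394 FPKM in WT, again between both (2.94 ± 0.20 from WT). *AT1G33840* and *AT1G47980* were not called lower than in *nrpe1*, where they had 20.5, 13.8 and 12 and 1.23, 2.78 and 2.2 FPKM.

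The rule for the 11 loci back at the WT level needs a narrow interval, which loci of low level seldom have, and it fixes a double mutant value near WT. Their median log2 difference from WT was 0.03 in *brat1nrpe1* and 1.24 in *nrpe1*, and 8 of the 11 were called lower in *brat1nrpe1* than in *nrpe1*. The neighbours *AT5G35480* and *MRU1* (AT5G35490) on chromosome 5 gave the clearest values. *AT5G35480* had 16.4, 25 and 19.1 FPKM in *brat1nrpe1*, 95.5, 89.1 and 77.8 FPKM in *nrpe1* and 21.4, 30.3 and 26.9 FPKM in WT. *MRU1*, named for its rise in a methionine over-accumulating mutant, had 5.59, 7.92 and 9.44 FPKM in *brat1nrpe1*, 25.1, 21.2 and 25 FPKM in *nrpe1* and 5.72, 9.96 and 8.45 FPKM in WT. In both genes the double mutant and WT overlapped while *nrpe1* was above every library of either. Within pairs *AT5G35480* was lower in *brat1nrpe1* than in WT in all 3, with a 95% interval of -0.66 to -0.10 and an adjusted p of 0.118 by limma, and *MRU1* was lower in 2 of the 3.

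*FLC* (AT5G10140), the MADS-box repressor of flowering, had 1.65, 0.806 and 0.91 FPKM in *brat1nrpe1*, 5.42, 1.41 and 1.52 FPKM in *nrpe1* and 1.5, 0.578 and 0.84 FPKM in WT. The F-box gene *AT1G20795* was listed at 0 in all libraries of *brat1nrpe1* and WT and had 0.536, 0.34 and 0.578 FPKM in *nrpe1*. The other members were *AT5G27345*, *AT2G05540*, *MLP328*, *AT4G37850*, *AT1G64590*, *AT2G20080* and *BHLH100*, with log2 differences from WT of -0.27 to 0.64 in the double mutant. *AT2G05540*, a glycine-rich protein gene, is at the edge of the rule, with 45.1, 40.5 and 39.9 FPKM in *brat1nrpe1*, against 33.9, 23.1 and 24.4 FPKM in WT, and no overlap. Membership moved with the libraries. It was 27 without replicate 1, and 3 to 8 when replicate 2, replicate 3 or any 1 library of *brat1nrpe1* or WT was left out.

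The 62 loci that met neither rule had a median log2 difference from WT of 0.82 in *brat1nrpe1* and 1.91 in *nrpe1*, and a median of 47.7% of the *nrpe1* level. All 62 were below *nrpe1*, which the rule favours, and 24 were called lower. Some of the largest releases in *nrpe1* are among them, with low levels and wide intervals in the double mutant. The pseudogene *AT3G32240* had 0.279, 0 and 0.0781 FPKM in *brat1nrpe1*, 46, 23.2 and 22.9 FPKM in *nrpe1* and 0.0212, 0 and 0 FPKM in WT. *AT3G33528* had 0.087, 0.0981 and 0.214 FPKM in *brat1nrpe1*, 3.79, 3.53 and 3.27 FPKM in *nrpe1* and 0.172, 0.25 and 0.0903 FPKM in WT. For *AT3G33528* the double mutant and WT overlapped, and its 95% interval ran from -1.17 to 0.74 on the log2 scale. Pseudogenes made up 18 of the 62, 17 of the 74 and 1 of the 11.

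**Figure D3:**
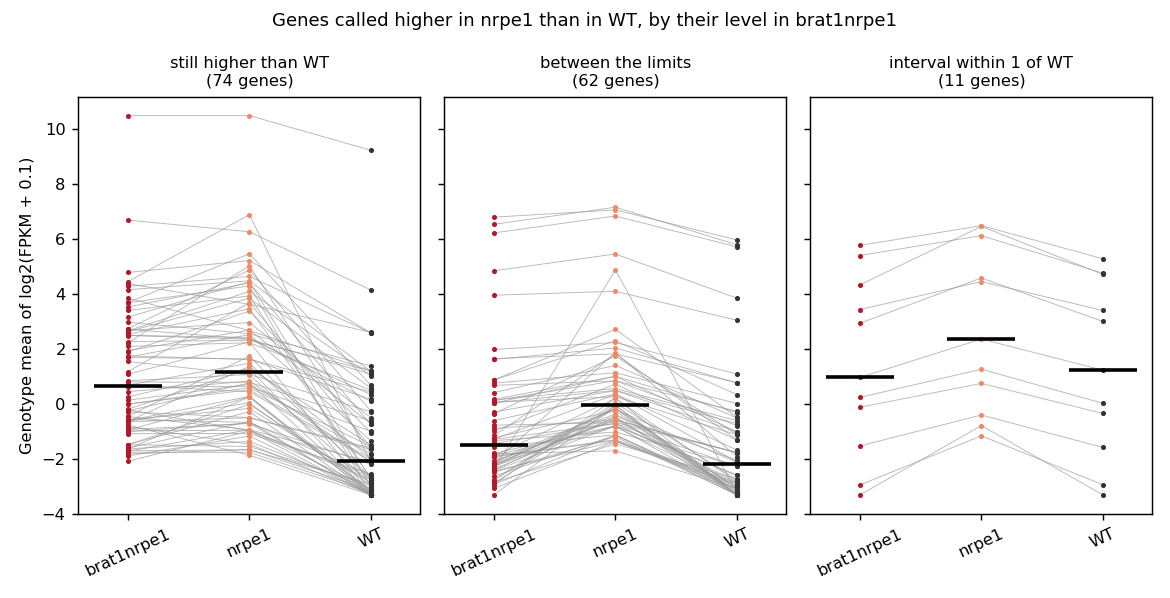
The 147 genes called higher in *nrpe1* than in WT, each a line through the genotype means of log2(FPKM + 0.1) in *brat1nrpe1*, *nrpe1* and WT, in 3 panels by their level in the double mutant, with black bars at the medians. The left panel holds 74 genes that stay high in *brat1nrpe1*, the middle 62 genes in between and the right 11 genes whose double mutant and WT medians are close.

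Losses in the single mutants carried over in part. Of 57 genes (0.252%) called lower in *nrpe1*, 30 were also lower in *brat1nrpe1*, 11 had the interval within 1 of WT and 16 met neither rule. Of 61 genes (0.269%) called lower in *brat1*, 31 were lower in *brat1nrpe1* and 7 had the interval within 1. Of 78 genes (0.344%) called higher in *brat1*, 44 were higher in *brat1nrpe1* and 2 had the interval within 1. Seen from the double mutant, 61 of its 173 higher genes were also called in *nrpe1* alone, 31 in *brat1* alone, 13 in both and 68 in neither, and of its 107 lower genes these numbers were 25, 26, 5 and 51. A missing call in a single mutant does not show that the gene differs between the genotypes.

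A stricter rule asked that a gene differ from WT, from *nrpe1* and from *brat1* in the same direction, with no call in either single mutant. Against *brat1* directly, 92 genes (0.406%) were higher and 40 (0.177%) lower in the double mutant. The whole rule was met by 15 genes, 6 higher and 9 lower. *AT3G30730* (chromosome 3, 12357280 to 12358128, minus strand), an unnamed gene on the strand opposite to *QQS* and near it, had 4.08, 3.58 and 4.42 FPKM in *brat1nrpe1* and was listed at 0 in all WT and *nrpe1* libraries and in 2 of the 3 *brat1* libraries. The pseudogene *AT1G43205* had 0.581, 0.799 and 1.47 FPKM in *brat1nrpe1* and 0.128, 0 and 0.297 FPKM in *nrpe1*. It was listed at 0 in *brat1* and WT, but a near-identical copy covers 100% of it. *PYL6* (AT2G40330), an abscisic acid receptor, had 1.86, 5.06 and 5.23 FPKM in *brat1nrpe1*, against 0.892, 1.44 and 1.17 FPKM in WT, with no overlap (1.60 ± 0.25, adjusted p = 0.0072). The fitted values of *PYL6* were also above WT in the single mutants, by 0.56 ± 0.25 in *nrpe1* and 0.52 ± 0.25 in *brat1*, without a call. *BGLU19* (a beta-glucosidase), *AT3G54940* (a papain-type protease) and *PDF1.3* (a plant defensin) completed the higher genes. None of these 3 was called without the replicate block, and the libraries of *BGLU19* and *PDF1.3* overlapped.

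Among the 9 lower genes, *HEI10* (AT1G53490, chromosome 1, 19963267 to 19966952) had even libraries in every genotype. HEI10 is a RING-type protein known for promoting meiotic crossovers. It had 1.25, 1.01 and 1.13 FPKM in *brat1nrpe1*, against 3.74, 3.49 and 3.7 FPKM in WT (-1.61 ± 0.10, adjusted p = 5.66e-05), with 3.31, 2.59 and 2.76 FPKM in *nrpe1* and 5.82, 6.14 and 5.94 FPKM in *brat1*. All 3 *brat1* libraries were above all WT libraries (log2 difference 0.70, adjusted p = 0.0176), so *HEI10* passed the rule although *brat1* differed from WT by less than the limit of 1. It overlaps *MRD1* (AT1G53480) on the other strand, which was also among the 9 (-1.18), so without strand their reads cannot be told apart. A pair of genes of the iron deficiency response of roots were far lower in replicates 2 and 3 and little lower in replicate 1. *IRT1* (AT4G19690), the main iron uptake transporter, had 15.6, 0.749 and 0.964 FPKM in *brat1nrpe1*, against 21.6, 7.54 and 7.64 FPKM in WT. *CYP82C4* (AT4G31940), a cytochrome P450 of the same response, had 1.13, 0.135 and 0.147 FPKM in *brat1nrpe1*, against 1.27, 1.49 and 1.47 FPKM in WT. Both calls were lost without replicate 2 or replicate 3 of *brat1nrpe1* or replicate 2 of WT, and that of *IRT1* without the replicate block.

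The precursor of *MIR850* had 26.7, 2.18 and 2.62 FPKM in *brat1nrpe1*, against 87.1, 19.8 and 15.3 FPKM in WT, lower within each pair although the groups overlapped, and it lies inside *AT4G13495*, which fell too (-1.73). *HCS2*, a biotin-protein ligase gene, had 0.109, 0.244 and 0.133 FPKM in *brat1nrpe1*, against 0.35, 0.928 and 0.676 FPKM in WT (-1.47 ± 0.26). *AT5G57400*, *AT5G39110* and *AT5G39160* completed the list, and the call of *AT5G57400* was lost without replicate 2 of either genotype or replicate 1 of WT. For 12 genes (0.053%), *HEI10* among them, the change in *brat1nrpe1* differed from the sum of those in *nrpe1* and *brat1* with an adjusted p under 0.05. No other of the 15 genes was among these 12. The rest of the 15 had adjusted p of 0.298 to 0.798 for this difference by limma, so a departure from the sum was not shown for them. The count of 15 was 27 without *brat1nrpe1* replicate 1, 7 to 9 without replicate 2, replicate 3, *brat1nrpe1* replicate 2 or WT replicate 2, and 5 without the replicate block.

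**Figure D4:**
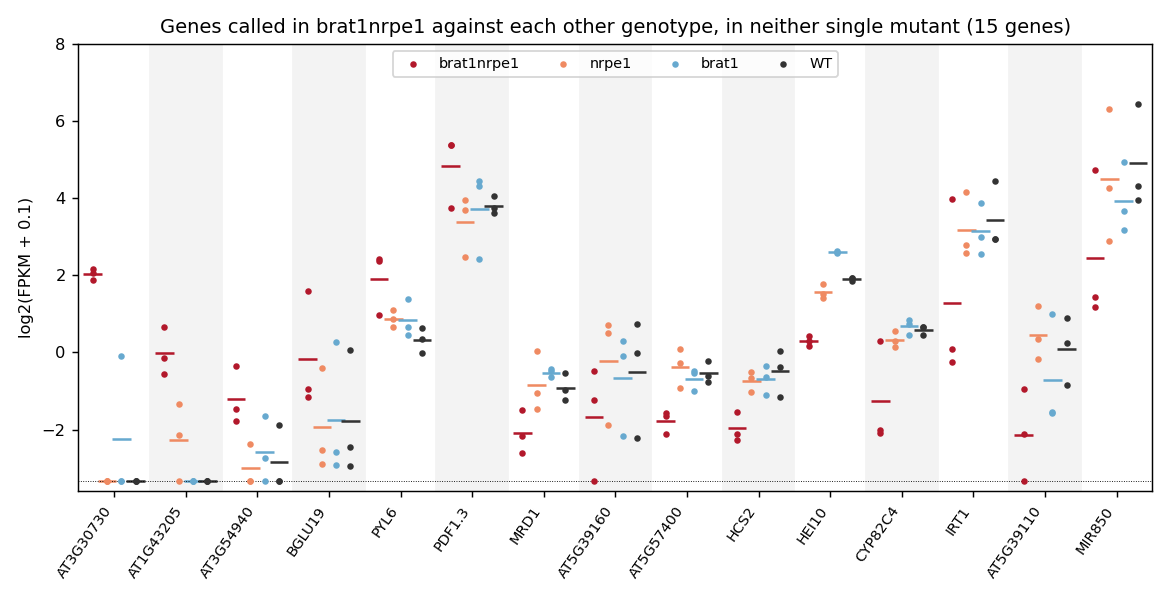
Log2(FPKM + 0.1) of the 15 genes that were called in *brat1nrpe1* against each of the other genotypes and in neither single mutant, with 3 points and a bar at the mean for *brat1nrpe1*, *nrpe1*, *brat1* and WT from left to right and a dotted line at 0 FPKM. *AT3G30730* and *HEI10* have tight double mutant libraries apart from the other genotypes, while *IRT1* and *CYP82C4* have 1 double mutant library at the level of the others.

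Pathway lists were then read against the background of 1.24% of genes called in either direction. Of 26 genes of RdDM and DNA methylation, *NRPE1* itself was the 1 called, and the median log2 difference was -0.04. Of 15 genes of demethylation and anti-silencing, *BRAT1* and *ROS1* were called lower, with a median of -0.11. *IDM2* and *IDM3*, which encode alpha-crystallin domain proteins of the complex that guides ROS1, had log2 differences of -0.68 ± 0.14 and -0.52 ± 0.13 and passed no call.

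The salicylic acid and defence list held the most called members. Of 24 genes, 5 were called higher and 1 lower, with a median log2 difference of 0.10. *PR1*, the standard marker of salicylic acid signalling, had 7.38, 6.13 and 4.86 FPKM in *brat1nrpe1*, against 1.48, 1.13 and 1.55 FPKM in WT (2.06 ± 0.44, adjusted p = 0.0276). *BGL2*, also known as *PR2*, encodes a beta-1,3-glucanase and had 7.1, 8.33 and 7.75 FPKM in *brat1nrpe1*, against 1.59, 3.18 and 3 FPKM in WT (1.60 ± 0.18, adjusted p = 0.00149). *LURP1*, needed for resistance to downy mildew, had 21.1, 23.3 and 23.1 FPKM in *brat1nrpe1*, against 6.34, 11.6 and 14.6 FPKM in WT. *AIG1*, a GTP-binding protein gene of the response to bacteria, and *FMO1*, a monooxygenase that makes N-hydroxypipecolic acid, were the other higher members (1.42 and 1.16). The 5 higher genes did not overlap between genotypes. The same held for 140 of the 173 genes called higher, and 1171 (5.17%) of all genes tested were higher without overlap. The calls of *LURP1* and *AIG1* were lost without replicate 1, that of *PR1* without replicate 2 and that of *FMO1* without any 1 of the 6 libraries.

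*PRB1*, a basic relative of *PR1* that lies near it on chromosome 2, went the other way. It had 7.74, 7.37 and 7.68 FPKM in *brat1nrpe1*, against 17.1, 33.4 and 29.6 FPKM in WT (-1.74 ± 0.18, adjusted p = 9.43e-04). Its level was 6.53, 7.63 and 10.7 FPKM in *brat1* and 23.6, 26.8 and 24.9 FPKM in *nrpe1*, so the double mutant was near *brat1*. In the single mutants, 4 of the 24 members of the list were called in *nrpe1* and 6 in *brat1*. Over all genes tested, 0.649% were called higher and 0.252% lower in *nrpe1*, and 0.344% and 0.269% in *brat1*.

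Other stress and development lists had at most 1 called member each. In the jasmonate list, 1 of 19 was lower (*LOX4*, a lipoxygenase, -1.25), and in the circadian clock list 1 of 18 was lower (*RVE1*, -1.10). *RVE1*, a morning-phased factor, had 1.76, 8.26 and 8.31 FPKM in *brat1nrpe1*, against 2.45, 22.7 and 22 FPKM in WT, with replicate 1 far below the others in both genotypes. One heat shock gene of 10, *HSP21* of the chloroplast, was higher (1.47), as were 1 of 14 cold and dehydration genes (*CBF2*, 1.07) and 1 of 13 genes of the endoplasmic reticulum stress response (*BIP3*, 1.27). In this last list, 5 of the 13 genes had every *brat1nrpe1* library above every WT library, where 5.17% of all genes tested did, 10 had a positive difference, the median log2 difference was 0.16 and the sums were 1063 to 1117 FPKM in *brat1nrpe1* and 967 to 979 FPKM in WT. None of 15 flavonoid genes and none of 9 flowering genes was called, with ranges of -0.39 to 0.08 and -0.31 to 0.90. The calls of *LOX4*, *RVE1* and *CBF2* were lost without the replicate block. The call of *LOX4* was also lost without any 1 replicate number, those of *RVE1*, *HSP21* and *CBF2* without number 2 or 3 and that of *BIP3* without number 1 or 2.

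Among the flower markers, 2 of 5 were called. *SEP3*, a MADS-box gene of floral organ identity, had 5.34, 8.31 and 7.56 FPKM in *brat1nrpe1*, against 2.11, 3.68 and 3.38 FPKM in WT (1.2 ± 0.22, adjusted p = 0.0164). *AP3*, of petal and stamen identity, had 0.381, 1.12 and 0.43 FPKM in *brat1nrpe1*, against 0.174, 0.0834 and 0 FPKM in WT (1.98 ± 0.41, adjusted p = 0.0256), and it was also called higher in *brat1*, with 0.514, 0.848 and 0.81 FPKM. *PI*, *AP1* and *AG* had log2 differences of 0.99 ± 0.26, 0.74 ± 0.45 and 0.34 ± 0.37 and passed no call. The call of *SEP3* was lost without replicate 3 and that of *AP3* without replicate 2 or replicate 3. More cells of a type and more transcript per cell cannot be told apart in whole seedlings, and the part of these markers in the gene groups above was not tested.

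**Figure D5:**
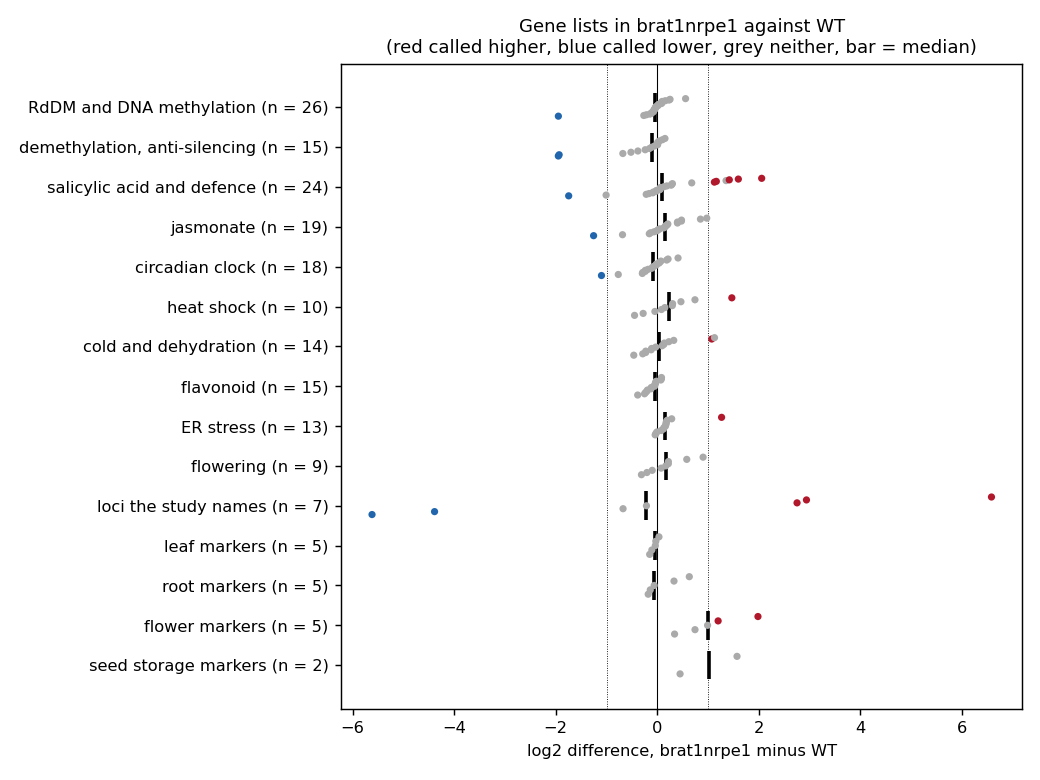
Log2 differences of *brat1nrpe1* minus WT for the tested members of 15 gene lists, each point a gene, red where called higher, blue where called lower and grey otherwise, with a black bar at the list's median and dotted lines at 1 and -1. The salicylic acid and defence list has 5 red points and 1 blue, the loci named by the study 3 red and 2 blue with a range of -5.62 to 6.58, the flower markers 2 red, and each other list at most 2 coloured points.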

How the data were processed

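RNA with poly-A tails from seedlings of 4 genotypes was sequenced by the authors in 12 libraries. Per the labels and the study's methods, reads were mapped to TAIR10 with Tophat (TopHat2 2.0.12 and Bowtie in the submitters' processing notes), uniquely mapped reads were kept, and Cufflinks 2.0.1 gave the FPKM that the authors deposited, per gene and library and not pooled. Unique mapping lowers genes with near-identical copies. Normalization options and strand use are not given in the sources used here. No column was left unmapped.

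FPKM was taken as log2(FPKM + 0.1), and 22645 of 34133 rows with a mean of at least 0.1 FPKM over all libraries were fitted with limma 3.58.1 (R 4.3.3), with 4 genotype means, replicate number as a block (6 residual degrees of freedom) and moderation with a trend. Calls needed a two-sided P under 0.01 and a log2 difference above 1 in size, the study's limits, and Benjamini-Hochberg adjustment ran over all genes tested. The comparison is defined as paired by the number in the labels. Same-numbered libraries of *brat1nrpe1* and WT deviated together (r across genes 0.599 to 0.819, where genes are not independent), and all 18 pairs over the 4 genotypes did so (0.593 to 0.840), but replicate 2 of *brat1nrpe1*, *nrpe1*, *brat1* or WT correlated with replicate 3 of another genotype as well (0.571 to 0.619), so the numbers separate replicate 1 from the rest more than 2 from 3. Depth was compared from the steps of low FPKM values, and its number limits precision most at low levels.

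Released, back and double-only genes followed the rules in the text. Named genes were *BRAT1*, *NRPE1*, *ROS1*, *BRP1* and loci the study names, the 12 largest changes in each direction among called genes whose libraries do not overlap, 8 loci each of the still released and back classes with the largest change in *nrpe1*, up to 8 double-only genes in each direction, and called list members. *AT3G32240*, *ESM1*, *AT1G67105*, *CYP735A2*, *MRD1*, *MIR157c*, *AT4G13495*, *AT5G39130*, *IDM2*, *IDM3* and called neighbours were added after their values were seen. The comparison, members and lists were chosen with earlier results of these data known. Positions, gene types and sequences are from RefSeq TAIR10.1, which matched 33377 rows, and near-identical copies were sought elsewhere in the genome with BLAST 2.17.0 (98% identity or more, 100 bases or more). The model was tested on simulated data. Python 3.11.15 with pandas 2.3.3, numpy 2.4.6 and matplotlib 3.10.9 was used for other steps. Alternatives were pseudocounts of 1 and 0.01, no filter, a mean of at least 1 FPKM, no replicate block, the 6 libraries alone, no trend, a common 75th percentile, adjusted p, replicates 2 and 3 averaged, and libraries left out.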

Additional observations from a re-analysis of the deposited data

Results flagged for a closer look

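For 12 genes (0.053% of those tested), the log2 change in *brat1nrpe1* differed from the sum of the changes in *nrpe1* and *brat1*, all against the same WT libraries, with an adjusted p under 0.05 for that difference in limma. Negative values mean a double mutant below the sum. *AT3G32240* gave -7.27, *AT2G01422* -4.17, *HEI10* -1.97, *AT5G35480* -1.56, *PORA* -1.37 and *SEN1* -0.72. *PORA*, protochlorophyllide oxidoreductase A of etiolated seedlings, averaged 16.3 ± 15.1 FPKM in *brat1nrpe1*, 29.2 ± 26 in *nrpe1*, 21.8 ± 19.6 in *brat1* and 16 ± 15.3 in WT (SD, n = 3 each, here and for the genes that follow). *SEN1* (AT4G35770), a gene induced by darkness and senescence, averaged 82.2 ± 26.8 FPKM in *brat1nrpe1*, 78.5 ± 20.4 in *nrpe1*, 75.3 ± 23.2 in *brat1* and 44.8 ± 17.3 in WT.

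Positive values mean a double mutant above the sum. *SADHU3-2* gave 3.78, with each mutant near 0 FPKM. Its log2 differences from WT were -4.07 in *nrpe1* and -4.10 in *brat1*, each already near the floor set by the pseudocount. The double mutant could not reach their sum, so a positive value was fixed by the scale. *AT3G57730* gave 1.64 and *AT2G42390* 1.30, and both were low in *brat1* alone. *AT3G57730* averaged 2.75 ± 0.297 FPKM in *brat1nrpe1*, 2.7 ± 0.596 in *nrpe1*, 0.804 ± 0.151 in *brat1* and 2.61 ± 0.105 in WT. *CORI3* gave 1.21, *AT1G57620* 1.07 and *AT5G11330* 0.86. *AT5G11330* averaged 23.2 ± 2.96 FPKM in *brat1nrpe1*, 12.8 ± 1.82 in *nrpe1*, 33.5 ± 4.57 in *brat1* and 33.5 ± 3.9 in WT.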

How the results depend on the processing

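The changes of *BRAT1* and *NRPE1* kept their direction and call under the alternatives of the fit run for single genes. No named gene called in the main fit or in the alternative changed direction there. Signs of named genes called in neither fit were not compared, and some near WT, such as *MRU1*, differed in sign between replicate pairs. With a pseudocount of 1, 48 genes were higher, 36 lower, 29 still released, 15 back at the WT level (4 of them among the 11) and 3 called in *brat1nrpe1* against all other genotypes and in neither single mutant, here called double-only, and with a mean of at least 1 FPKM the numbers were 87, 60, 39 and 7, with 7 back at the WT level. Without the replicate block, 118 were higher, 72 lower, 7 back and 5 double-only. With an adjusted p under 0.05, 48 were still released, 6 back and 4 double-only. The count back at WT was 29 with no filter and 17 without a trend. With replicates 2 and 3 averaged as 1 sample, 147 were higher, 87 lower, 5 back and 9 double-only. Leaving out a replicate number or 1 library gave 117 to 209 higher, 80 to 134 lower, 55 to 89 still released, 3 to 27 back and 7 to 27 double-only, where a genotype left with few libraries is assumed to vary like the others. Membership moved more than these totals. Leaving out replicate number 1, 2 or 3 kept 127, 107 or 88 of the 173 higher genes and 83, 66 or 67 of the 107 lower genes. It kept 54, 44 or 44 of the 74 still released, 7, 4 or 3 of the 11 back and 9, 4 or 6 of the 15 double-only genes. Leaving out genes at 0 beside 1 FPKM or more within a genotype, an alternative chosen after seeing the data, gave 168 higher, 103 lower, 72 still released, 11 back and 15 double-only. For genes near the pseudocount the fold depends on it, and zeros in FPKM can be failed estimates. No alternative other than those named moved these counts by over 1.5 times.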
